A study of Mus musculus with 36 samples.

Results

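The cytosolic ribosomal protein genes were followed in C2C12 cells, an established mouse myoblast line that divides as muscle precursors. They were taken from the deposited gene list by symbol: names that begin with Rpl or Rps and go on with a protein number, annotated as protein coding, without pseudogenes and without the Rps6k kinases. This gave 82 of 49315 genes, 51 of the large subunit and 31 of the small subunit, spread over 19 chromosomes. The genes Rpsa, Fau and Rpl36al also code for ribosomal proteins, and Rack1 for a protein bound to the small subunit. Their symbols fall outside the rule, so they are given apart.

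Cells were seeded at 1500 cells per cm2 and grown in sealed culture units, and the last fluid exchange, which fixed the RNA, came on day 9 after launch or at the matching time of a ground run. Of the 6 groups, 3 had no nanoceria and 3 had nanoceria (cerium oxide nanoparticles coated with serum) at 100 µg/ml in the medium reservoir. Each pair of groups was kept in space without gravity, in space with gravity, or on land, and the labels use these terms for the regimes. Every group had 3 libraries of polyadenylated RNA, and the labels give 3 culture units for each group. All cells came from the same line, and all units stood in the same type of incubator set to 37 °C. The ground run followed the flight, so being in space and being part of the earlier run cannot be told apart. Nothing in the labels pairs libraries across groups.

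A cytosolic ribosome carries one copy of almost every ribosomal protein, set on ribosomal RNA. The P-stalk proteins are the exception and sit on the large subunit as several copies, where they recruit elongation factors. In growing cells the mRNAs for these proteins are among the most abundant, and most begin with a run of C and T that ties their translation to the mTOR kinase. Proliferating myoblasts make many ribosomes, while a cell that stops growing makes fewer.

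The run of C and T was looked for in RefSeq promoter windows of GRCm38.p6, from 250 bases before to 50 bases after each start, which were given for 62 of the 82 genes. A run of at least 8 letters C or T lay between 30 bases before and 50 bases after the start in 79.0% of the matched genes, against 32.3% of the 27025 genes of that table. The word CTCTTT, on the gene strand, occurred in 37.1% of them against 13.7% of all genes, and was chosen after the sequences were seen. The word CCGGAAG, which is read by ETS factors, occurred on either strand in 40.3% against 9.93%. CACGTG, the word bound by Myc with Max, occurred on either strand in 9.68% against 8.09%. The word AAGATGG on the gene strand occurred in 8.06% against 4.17%. Where 2 words overlap in a window, both were counted. In the following 30-base stretches the capitals mark the run of C and T around the word CTCTTT, whatever its length. They are shown for Rpl26 and Rpl37, which were lower in space with gravity than on land, for Rps6 and Rpl5, whose roles are described below, and for Rpl28 and Rpl35.
Rpl26: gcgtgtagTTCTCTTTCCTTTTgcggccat
Rpl37: cgggggtgctttctcttccggTCTCTTTgg
Rps6: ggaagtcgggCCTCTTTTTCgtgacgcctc
Rpl5: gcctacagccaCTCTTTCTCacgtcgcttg
Rpl28: gcctctcgtgTCTCTCTTTCCgtctccggc
Rpl35: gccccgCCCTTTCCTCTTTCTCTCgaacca
They lie at chr11:68901579-68901608 on the plus strand, chr15:5116633-5116662 on the plus strand, chr4:86857349-86857378 on the minus strand, chr5:107900497-107900526 on the plus strand, chr7:4792952-4792981 on the plus strand and chr2:39005115-39005144 on the minus strand. In the same order, the marked runs begin at 21, 41, -1, -20, -3 and -7 bases from the start. They need not be the run with which the mRNA begins. In Rpl37 a longer run in lower case comes just before the marked one. A tract in a window is a match of letters and says nothing of its use. Promoter windows were not given for Rpl3, Rpl7, Rpl8, Rpl17, Rpl21, Rpl23a, Rpl29, Rpl30, Rpl32, Rpl36, Rplp1, Rps14, Rps20, Rps27a and Rps29, among others.

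Total counts were 2986628 to 11378178 in 17 libraries. The smallest library, replicate 3 of nanoceria in space with gravity, had 23858 counts in all and 172 in ribosomal protein genes. Lars2 and 5 predicted genes (Gm23935, Gm15564, Gm24270, Gm24187 and Gm25911), called the 6 dominant genes here, took 23.8% to 76.3% of the counts of a library, with the highest shares on land. The myoblast markers Des (10699 counts) and Myf5 (8175 counts) were found in all 18 libraries, while Myod1 had 99 counts, Pax7 52 and Msc 1. Levels below are in CPM, the count scaled to a fixed total of the library outside the dominant genes, for all but the smallest library. Summed over 7 myoblast markers the level was 186 to 373 CPM in space and 242 to 1157 on land. The medians were 229 in space without gravity, 354 in space with gravity and 375 on land. Summed over 10 myotube markers the level was 1.23 to 36.9 CPM in space, where 6 or 7 of them had counts. On land it was 7.79 to 345 and all 10 had counts, Tnnc2 and Mymx in 1 library each. The medians were 7.94, 9.56 and 16.5 in the same order. Of the 4 fibroblast markers, Lum was at 0 in all libraries. Their sum was 2.66 to 17.9 CPM in space and 3.90 to 37.7 on land, with medians of 5.35, 5.53 and 16.6. The part of these cell markers in the results on space and land was not tested.

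Of the 82 genes, 79 had enough counts to be tested. Levels of different genes are compared per deposited gene length, as length-scaled transcript shares (TPM) outside the dominant genes. Rps12, a small-subunit protein, stood highest at 6002 ± 2869 TPM (SD, n = 18) and took 10.2% of the summed length-scaled level of all 82 genes. Rplp1, one of the acidic P-stalk proteins, followed at 3829 ± 1569. The next were Rps15 at 1890 ± 951, Rpl36 at 1852 ± 891, Rps24 at 1836 ± 690 and Rpl17 at 1808 ± 1062. The SDs are taken over libraries of all 6 groups, and levels of genes were not compared within libraries. The lowest of the tested genes were Rps15a at 59.3 ± 28.3 and Rpl7l1, a paralogue of Rpl7, at 46.1 ± 19.6 TPM. With the length of the principal coding transcript in place of the deposited length, 2 of these 6 highest genes stayed among the first 6, Rps12 and Rplp1, and Rps24 moved from rank 5 to rank 43. The order of the genes in between therefore rests on the length used.

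Rpl3l, Rpl10l and Rpl39l, the paralogues here with a known restricted use, had few or no counts. Rpl10l and Rpl39l, which are known from the male germ line, had 0 counts in all 18 libraries, and Rpl3l, the form of adult heart and skeletal muscle, had 6 counts in total. For a gene at 0, the 3 counts taken as the lowest visible level equal 0.350 to 2.41 CPM in 17 libraries and 165 in the smallest. The broadly used forms had 20742 counts for Rpl3, 28949 for Rpl10 and 11139 for Rpl39. Rpl22l1 reached 79.5 ± 39.4 TPM against 207 ± 115 for Rpl22 and Rpl7l1 46.1 ± 19.6 against 442 ± 194 for Rpl7. Per transcript length Rpl22l1 and Rpl22 stand side by side, at ranks 69 and 70 of the 82 genes. Rps27l reached 365 ± 154 against 1075 ± 386 for Rps27. Rps4l is annotated as a processed pseudogene and was left out, so Rps4x, an X-linked gene, had no partner here.

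Ribosomal protein mRNAs have many processed copies in the genome, which affects how reads can be placed. A median of 61.7% of the 50-base windows of a member's principal mRNA occurred elsewhere in GRCm38.p6 without a mismatch. The share was above 90% for 12 genes, Rps12, Rpl36, Rps27, Rpl10, Rpl3, Rpl23a and Rps6 among them. It was 0 for Rpl3l and Rpl39l and 3.44% for Rps3. How reads with several matches were counted is not given in the sources used here. The 273 named ribosomal protein pseudogenes together had 3.08 to 4.43 counts for every 100 counts of the 82 genes in 17 libraries.

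The 82 genes together took 1.45% to 7.50% of the counts outside the dominant genes in 17 libraries and 0.947% in the smallest (Wilson 95% interval 0.816% to 1.10%, for counting error only). Untreated libraries from space without gravity had 2.57%, 7.50% and 2.25%, and those given nanoceria 2.13%, 3.27% and 2.45%. Where gravity was present in space, untreated libraries had 1.64%, 1.62% and 2.24% and nanoceria libraries 1.45%, 2.61% and 0.947%. The land libraries had 5.76%, 6.74% and 2.98% untreated and 2.51%, 3.71% and 1.77% given nanoceria. The means over 6 libraries were therefore 3.36% ± 2.07, 1.75% ± 0.591 and 3.91% ± 1.94 (SD), and the ranges of the 3 regimes overlapped. The highest values were in libraries in which the dominant genes were also high: the library at 7.50% had 70.3% of its counts in them and the one at 6.74% had 76.3%. Others did not follow this: land with nanoceria replicate 1 had 73.3% in the dominant genes and 2.51% in the members, and replicate 3 had 64.1% and 1.77%. As a percent of all counts the means lay closer, at 1.44% ± 0.397, 1.11% ± 0.252 and 1.27% ± 0.487 (SD, n = 6), and space without gravity was then above land. The log2 ratio of the mean of space with gravity to that of land was -1.16 on the first scale and -0.20 on the second. In such bulk libraries a change in the share of one cell type and a change in RNA per cell cannot be told apart.

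**Figure D1:**
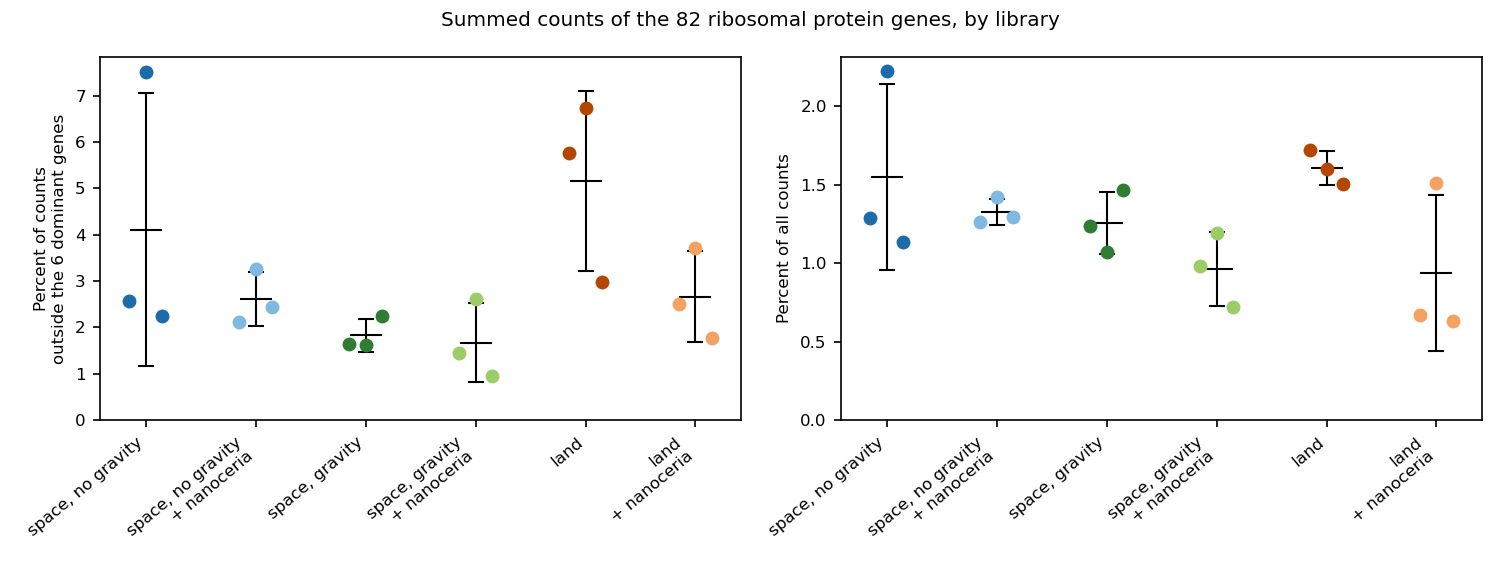
Summed counts of the 82 ribosomal protein genes in each of 18 libraries relative to the counts left without the 6 dominant genes, in percent (left panel) and relative to all counts, in percent (right panel), by group; points are libraries and bars the mean ± SD of 3. On the left the group means run from 1.67% to 5.16%, while on the right they run from 0.938% to 1.61%.

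The comparison of space with gravity against land sets cells flown with gravity retained against those of the later ground run. Averaged over both nanoceria levels, 8 of the 79 tested genes were lower in space and 0 were higher (edgeR, Benjamini-Hochberg adjusted p under 0.05). Those 8 are 10.1% of the tested members. Of all 11558 tested genes, 14.0% were called, 6.74% lower and 7.22% higher. The median log2 fold change was -0.69 over the members and -0.04 over all tested genes, and 73 of the 79 values were negative. With 1 replicate left out the member median ran from -1.04 to -0.58, and it was -1.04 without space with gravity and nanoceria replicate 2. Described here are Rplp2, Rpl13, Rpl23a, Rpl26 and Rpl37 of the large subunit and Rps15 and Rps29 of the small subunit. The median was -0.81 over 48 large-subunit genes and -0.43 over 31 small-subunit genes.

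**Figure D2:**
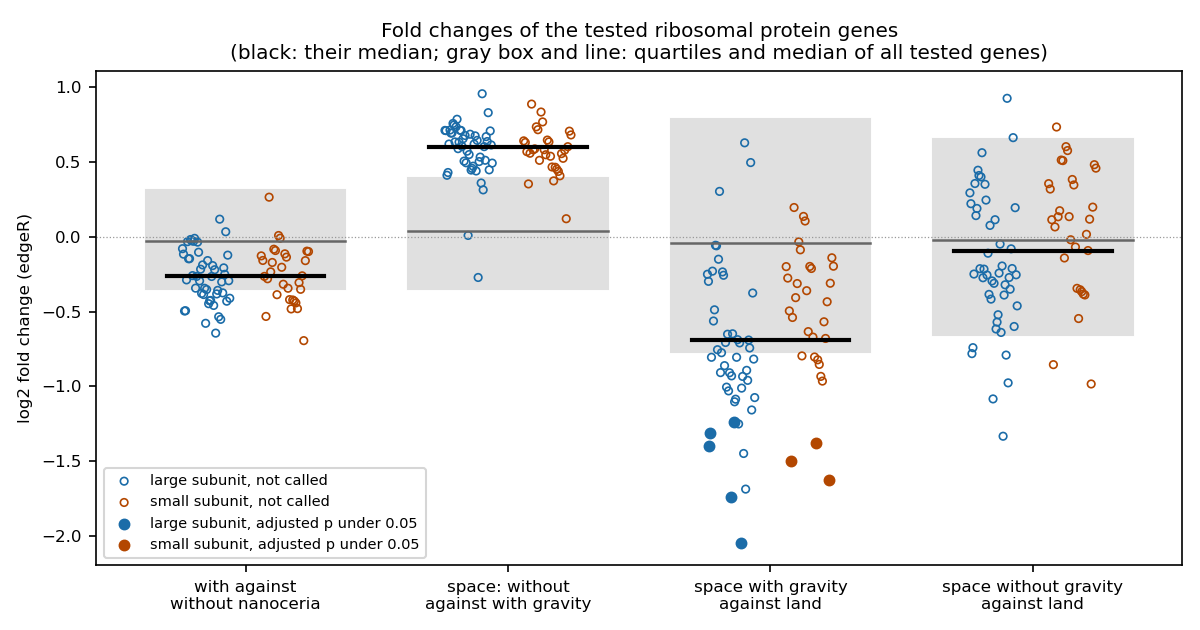
Log2 fold change (vertical axis) of the 79 tested ribosomal protein genes in 4 averaged comparisons; each circle is a gene, filled where the edgeR adjusted p is under 0.05, the black line is their median, and the gray box and line are the quartiles and median of all 11558 genes. The members sit close together at a median of 0.60 between the gravity regimes in space and spread widely, from -2.04 to 0.63, between space with gravity and land.

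Rplp2, the second acidic protein of the P-stalk (ENSMUSG00000025508, chr7:141447370-141451585 in GRCm38.p6), showed the lowest fold change. Scaled CPM is the CPM over the counts of all tested genes after trimmed-mean scaling of the library sizes. In space with gravity that of Rplp2 was 132, 148 and 228 without and 98.9, 262 and 23.8 with nanoceria. On land it was 1095, 842 and 311 without and 492, 659.9 and 400.4 with nanoceria. No library of the one regime reached the other. The 23.8 is 2 counts in the smallest library, whose scaling factor of 3.86 lowers its scaled CPM. For the genes below, the lowest scaled CPM in space with gravity is also from that library, at 0 to 4 counts. The log2 fold change was -2.04 ± 0.49 (SE, adjusted p = 0.0147, edgeR). Its stalk partners did not pass: Rplp1 had -0.81 ± 0.48 (adjusted p = 0.256) and Rplp0, the protein that anchors the stalk, -1.01 ± 0.51 (adjusted p = 0.178).

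Rpl13 (chr8:123102350-123105244), a large-subunit protein, was at 218, 252, 235, 217, 411 and 23.8 scaled CPM in the 6 libraries of space with gravity. On land it was at 1173, 996, 446, 847, 855 and 325, with nanoceria in the last 3 of both sets. Only the lowest land library fell within the range of space. The log2 fold change was -1.74 ± 0.51 (adjusted p = 0.0313, edgeR). Rpl23a (chr11:78180932-78183584), which lines the exit of the peptide tunnel, ran from 23.8 through a median of 57.6 to 75.2 in space with gravity and from 93.1 through 123 to 231 on land, with no overlap. Rpl26 (chr11:68901583-68906989), a large-subunit protein that also binds the p53 mRNA, ran from 0 to 14.5 against 15.9 to 43.4, again with no overlap. The 0 is that of the smallest library. Rpl37 ran from 47.7 through 107 to 178 against 168 through 247 to 531, with the highest land value in land with nanoceria replicate 3. Their log2 fold changes were -1.40, -1.24 and -1.31, with adjusted p-values of 0.0202, 0.0421 and 0.0374 (edgeR).

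In the small subunit, Rps29 (chr12:69157722-69159186), a zinc-binding protein of the head, ran from 23.8 through 76.2 to 122 in space with gravity and from 78.8 through 228 to 499.6 on land. Rps15 (chr10:80292453-80294114), of the head near the decoding site, ran from 47.7 through 121 to 163 against 119 through 288 to 788, and the highest value was land with nanoceria replicate 1. Both ranges overlapped. Their log2 fold changes were -1.63 and -1.50, with adjusted p-values of 0.0245 and 0.0340 (edgeR). Without land with nanoceria replicate 1, Rps15 had -0.96. Just outside the threshold lay Rpl30 with -1.69 ± 0.56 (adjusted p = 0.0501).

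**Figure D3:**
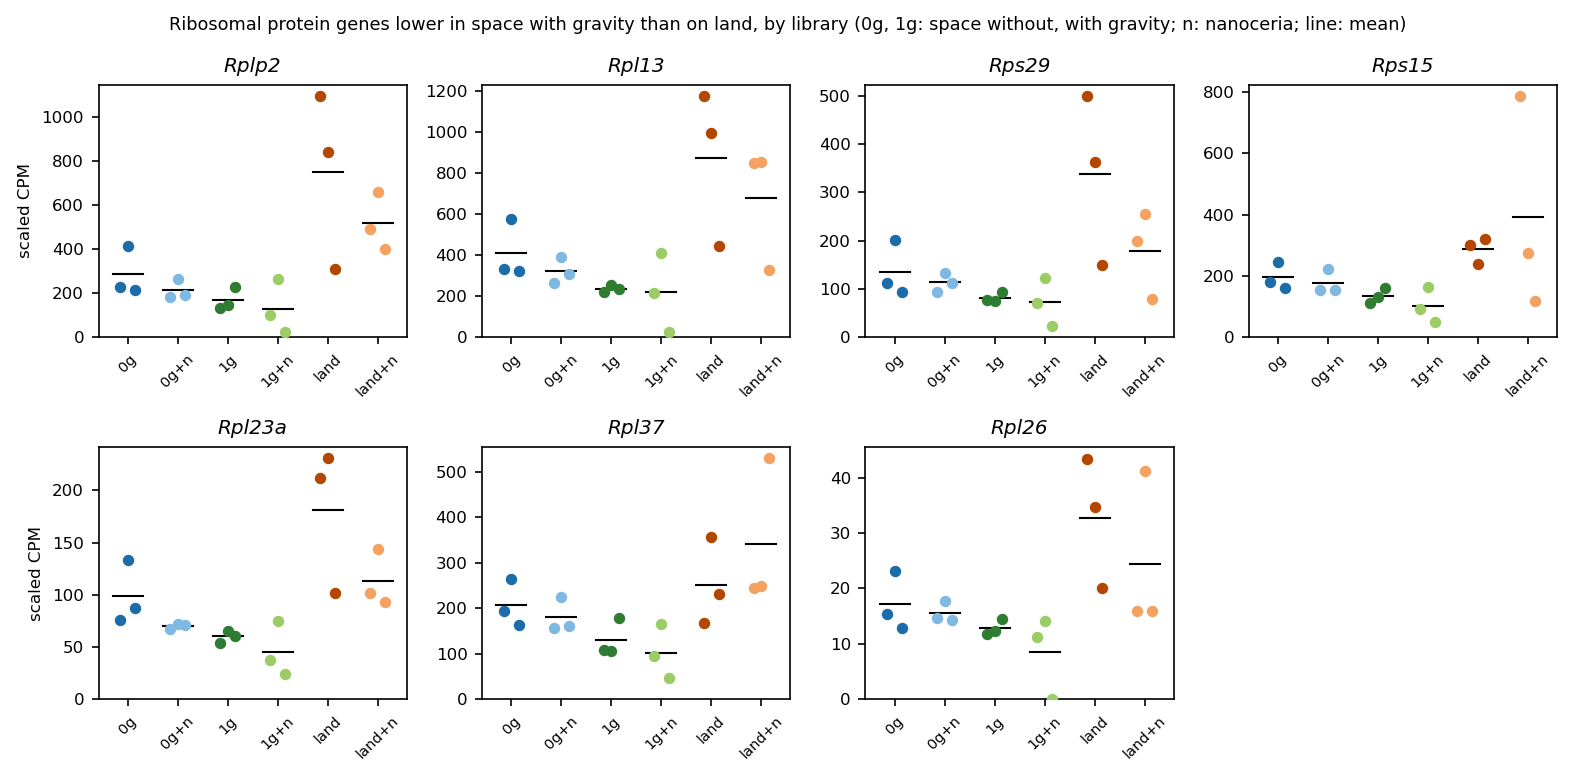
Scaled CPM (vertical axis, from 0) in each library for 7 genes lower in space with gravity than on land; points are libraries, the line is the group mean, 0g and 1g stand for space without and with gravity and n for nanoceria. Rplp2 shows no overlap between the 6 libraries of space with gravity (at most 262) and the 6 on land (at least 311), while single land libraries stand out for Rps15 and Rpl37.

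Members with other roles did not pass the test. Rpl5 and Rpl11, which carry the 5S RNA and bind Mdm2, had -0.26 ± 0.46 (adjusted p = 0.734) and -1.01 ± 0.37 (adjusted p = 0.0715). Rps6, the substrate of the S6 kinases, had -0.20 ± 0.37 (adjusted p = 0.751), and Rps3, a small-subunit protein that also acts in DNA repair, 0.11 ± 0.46 (adjusted p = 0.904). Rps19, mutated in Diamond-Blackfan anemia, had -0.80 ± 0.42 (adjusted p = 0.202). Rpl41, the shortest ribosomal protein, had -1.45 ± 0.55 (adjusted p = 0.0828), and Rps27a, made as a fusion to ubiquitin, had -0.21 ± 0.45 (adjusted p = 0.781). The highest values were those of Rpl7l1 (0.63 ± 0.36, adjusted p = 0.241), Rpl15 (0.50 ± 0.44, adjusted p = 0.465) and Rpl22l1 (0.30 ± 0.41, adjusted p = 0.647), all from edgeR. Rpl22l1 turned to -0.02 with DESeq2 size factors.

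The number of members called in that comparison depended on the fit. With DESeq2 size factors, which shift the median of all genes to -0.39 and call 628 genes higher and 1558 lower, it was 25, against 13.5% of all genes called lower. With limma voom it was 27 against 7.3%, and with the DESeq2 test 38 against 16.2%. In each of these fits all called members were lower. It was 0 when the percent taken by the dominant genes entered the fit as a covariate. There the median of the members turned to 0.25 and Rplp2 had -0.38 (adjusted p = 0.890, edgeR). That percent was 23.8% to 54.4% in space with gravity and 49.6% to 76.3% on land. It is thus tied to the regime, and this fit cannot separate the 2. With 1 replicate left out, the number called fell to 0 without space with gravity and nanoceria replicate 1. It was 1 without space with gravity replicates 1 or 2 or land replicate 2, and 2 without space with gravity replicate 3. It was 3 to 5 without land replicate 1, land with nanoceria replicate 2 or land with nanoceria replicate 1. Rplp2 stayed called in 11 of 12 such fits. Rpl13, Rpl26, Rpl37 and Rps15 each lost their call in 8 of them, Rps29 in 7 and Rpl23a in 4. The share of all genes called in these fits is not given here, so members and other genes cannot be compared there. Of the 29 tested members with mostly unique mRNA sequence, 2 were called. By ranges alone, 5 of the 79 members (6.33%), Rpl23a, Rpl26, Rpl27, Rpl28 and Rplp2, did not overlap between the 6 libraries of space with gravity and the 6 on land, against 3.79% of all tested genes. Without the smallest library, a choice made after seeing the data, Rpl7l1 joined them, higher in space, and the share of all genes was 7.82%.

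Against land, the cells kept in space without gravity showed no called member (edgeR, 0 of 79, with 5 at an unadjusted p under 0.05, against 24.7% of all tested genes). Of all tested genes 5.25% were called, 2.81% higher and 2.44% lower. The DESeq2 test called 4 and limma voom 2, all lower, against 8.79% and 4.2% of all genes called lower. The median was -0.09 over members and -0.02 over all genes, with 44 negative and 35 positive values. The lowest p-values on the lower side were those of Rplp2 (-1.33 ± 0.48), Rps29 (-0.98 ± 0.44) and Rpl23a (-0.78 ± 0.36), and on the higher side those of Rpl15 (0.93 ± 0.44), Rps25 (0.73 ± 0.43) and Rpl22l1 (0.66 ± 0.41). This comparison shares its land libraries with the one above. None of the 79 members was without overlap between those 2 regimes, against 2.91% of all tested genes.

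Withdrawing gravity within space was compared between libraries of the same flight. All but 1 of the 79 members had a positive log2 fold change, with a median of 0.60 against 0.04 over all tested genes, but none passed the test (edgeR, 0 of 79 against 0.0% of all genes, 1 at an unadjusted p under 0.05, against 5.85%). DESeq2 and limma voom also called 0. The member median was 0.93 without space with gravity and nanoceria replicate 2 and 0.43 without the smallest library. The median was 0.62 in the large and 0.58 in the small subunit, 0.60 without nanoceria and 0.55 with it. The gene behind that count was Rpl17, a protein at the tunnel exit, with 0.96 ± 0.45 (adjusted p = 0.834, edgeR). It was at 241, 387 and 232 scaled CPM without gravity and 151, 163 and 189 with gravity, both without nanoceria. With nanoceria it was at 194, 251 and 243 without gravity and 132, 148 and 11.9 with gravity. The 2 sets did not overlap. The 11.9 is 1 count in the smallest library.

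Rps24, a small-subunit protein with tissue-dependent splicing, had 0.77 ± 0.38 (adjusted p = 0.870). Rpl7l1 was the exception with -0.27 ± 0.36. In 5 members, Rpl6, Rpl10a, Rpl17 and Rps3a1 among them, every library without gravity was above every library with gravity, which is 6.33% of the members against 0.277% of all tested genes. The same 5 did not overlap without the smallest library, against 0.658% of all genes. The members stand at a higher level than most tested genes (median log2 scaled CPM 7.27 against 3.15). These percentages, and those of overlap given above, are therefore not comparable between members and all genes. Nearly all members moved in the same direction, so the 5 are not separate results. Rps3a1, for example, ran from 37.1 to 74.5 scaled CPM without gravity and from 11.9 to 35.4 with it. The percent of counts in the dominant genes moved with this result: it was 40.7% to 70.3% in space without gravity and 23.8% to 54.4% in space with gravity. With that percent as a covariate the member median was 0.07. Its part in the result was not tested further.

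Nanoceria gave no called member when averaged over the 3 regimes (edgeR, 0 of 79 against 0.0% of all genes, 1 at an unadjusted p under 0.05, against 6.54%, and 0 with DESeq2 or limma voom). The median was -0.27 over the members against -0.03 over all tested genes, and 75 of the 79 values were negative. The member median was -0.48 without space with gravity and nanoceria replicate 2, -0.11 without the smallest library and -0.17 without land with nanoceria replicate 3. Within the regimes the median was -0.24 in space without gravity, -0.20 in space with gravity and -0.39 on land. Rpl39 had -0.64 ± 0.35 and Rpl23a -0.50 ± 0.29, and on the higher side Rps16 had 0.26 ± 0.43 and Rpl18 0.12 ± 0.36. Both turned below 0 without space with gravity and nanoceria replicate 2, and Rps16 also without land with nanoceria replicate 1, at -0.17. The test of whether the nanoceria effect differed between the regimes called 0 members, 0.0% of all genes and 0 members at an unadjusted p under 0.05. Of the 9 pairwise comparisons of groups, 7 called 0.0% of all genes, and none called a member by edgeR. With nanoceria, space with gravity against land called 0.00865% and space without gravity against land 0.0433%, 0.0346% of it higher. Unadjusted p-values under 0.05 were found for 10 members between space with gravity and land without nanoceria, against 21.5% of all tested genes, and for 8 with it, against 20.5%. Both member counts are below those shares. The DESeq2 test gave 21 member calls over the 9 and limma voom 22, where 3.34% and 2.52% of all gene tests were called. With 79 members tested in each comparison, the member calls lie near those shares.

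The make-up of the ribosomal protein counts, the share of each gene in the sum of the members, does not depend on how libraries are scaled. It was close between space libraries and variable on land. Between 2 libraries of space without gravity the SD over members of the log2 ratio of their shares was 0.18 to 0.37 (median 0.27, 15 pairs), and between 2 of space with gravity 0.15 to 0.44 (median 0.28, 10 pairs, smallest library left out). Between a library of each it was 0.18 to 0.45, with a median of 0.31. Between 2 land libraries it was 0.36 to 0.85, with a median of 0.60 over 15 pairs. Counting error alone gives 0.12 at the median for land pairs and at most 0.15. Over 5764 other genes with a mean of at least 50 counts the same medians were 1.26, 1.22 and 1.70. The members had a median of 926 counts per library and those genes 153, so the levels of the SD are not comparable between the 2 sets.

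**Figure D4:**
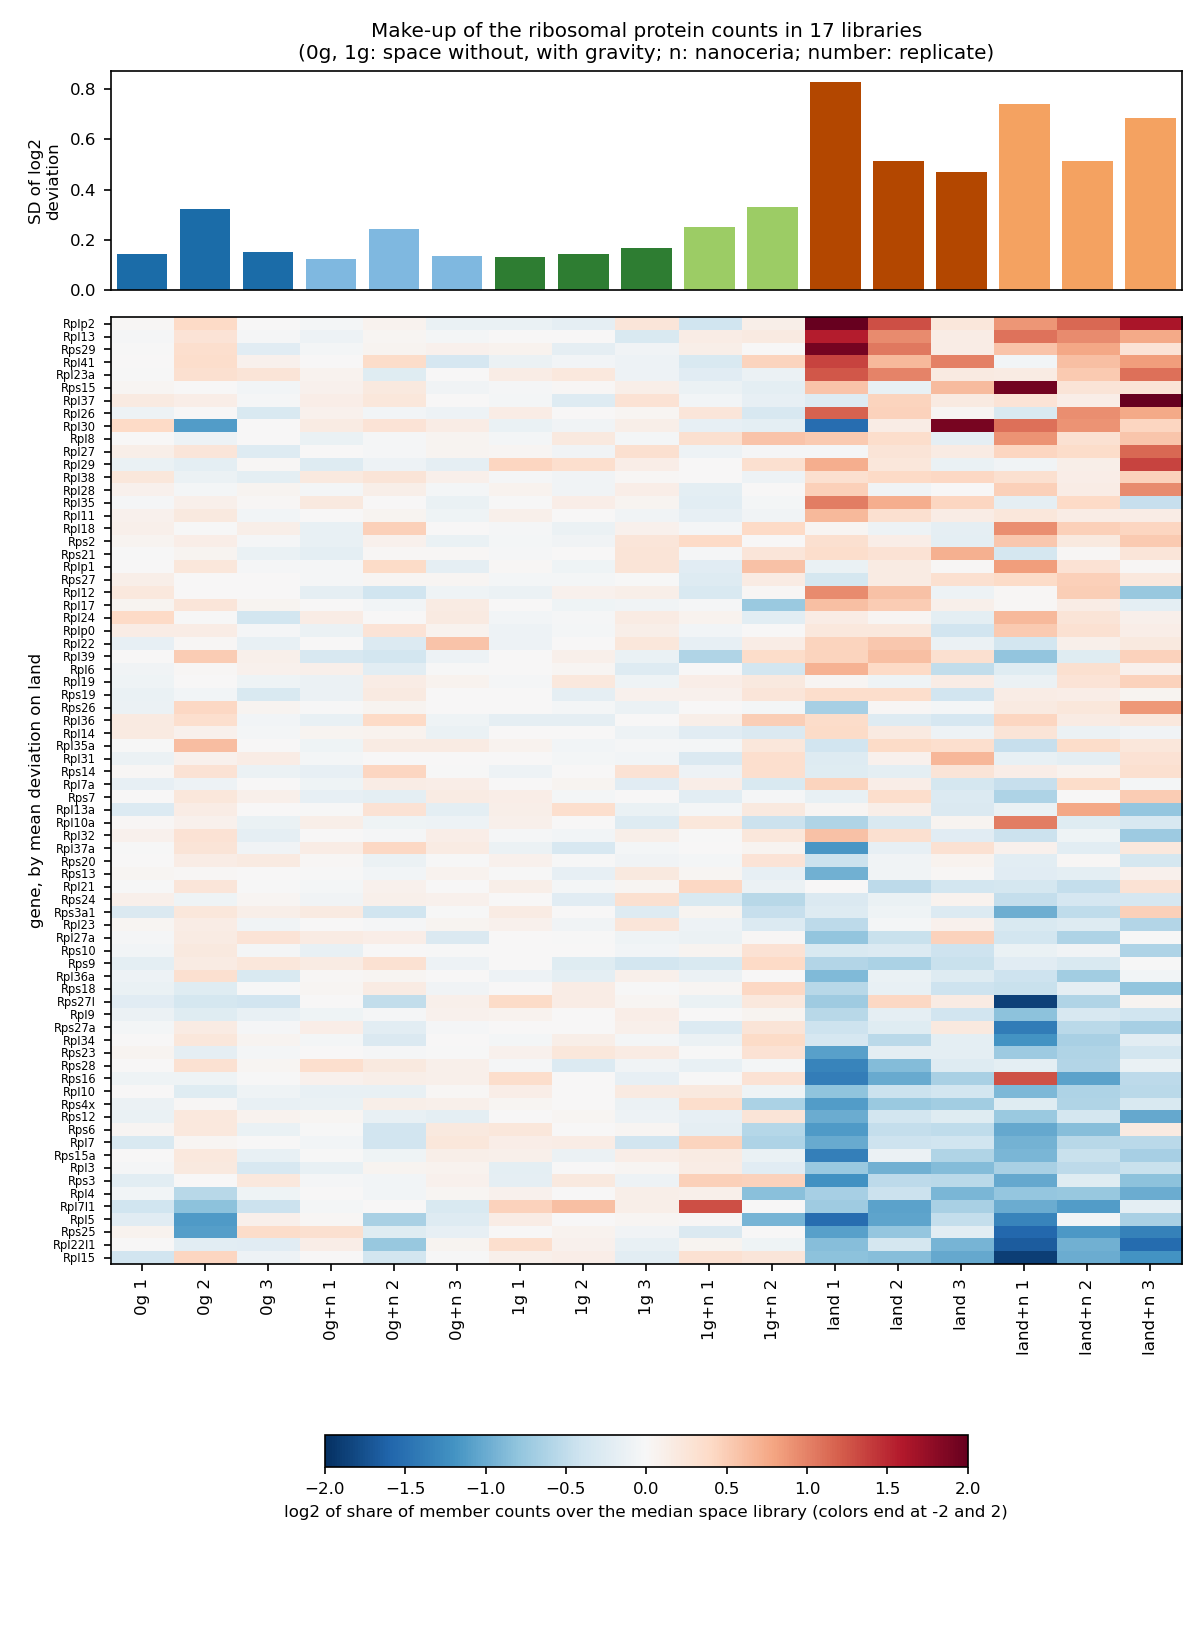
Make-up of the ribosomal protein counts: each cell of the lower panel, which shows most of the 79 tested genes, is the log2 of a gene's share of the member counts in a library (columns, 17 libraries) over its median share in the 11 space libraries, and the bars above give the SD of these values in each library. The SD is 0.12 to 0.33 in the space libraries and 0.47 to 0.83 on land, where different genes stand out in different libraries.

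Different genes stood out in different land libraries. Against the median space library, 4 to 22 of the 79 members were off by more than 2-fold on land and 0 to 3 in a space library. Since that reference is made from the space libraries, they lie nearer to it by construction; the pairs of libraries above use no reference. Rplp2 led in land replicates 1 and 2 and in land with nanoceria replicate 2, Rpl30 in land replicate 3, Rps15 in land with nanoceria replicate 1 and Rpl37 in land with nanoceria replicate 3. Rpl37 held 6.61% of the member counts in that library, against 1.02% to 1.48% in the 11 space libraries. Rpl30 held 0.926% to 9.97% over the 6 land libraries and 1.23% to 3.50% in space. Rplp2 held 1.86% to 6.68% on land and 1.22% to 2.10% in space, and Rpl13 2.67% to 7.15% against 1.96% to 2.91%, so that both ranges met at their edges.

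A further 7 members, 8.86% of the 79, held less of the member counts in each of the 6 land libraries than in each of the 11 space libraries, and none held more. The same measure gave 2.55% among the 5764 other genes, in either direction. Those genes have fewer counts per library (median 153 against 926), so these percentages are not comparable. Shares of one sum are also tied, so a higher share of some members on land lowers that of others. Rpl3, Rpl10, Rpl15, Rps3, Rps12 and Rps23 were among the 7 members. Rps12 held 2.02% to 3.48% on land and 3.62% to 4.95% in space, and Rpl15 0.113% to 0.236% against 0.320% to 0.560%. Rps3, whose mRNA is nearly free of copies elsewhere in the genome, held 1.15% to 2.23% against 2.29% to 3.68%. Rpl3, at the peptidyl transferase center, Rpl10, which joins the large subunit last, and Rps23, at the decoding center, gave ranges of the same kind.

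GC content and length of the mRNA moved with these differences. Pearson correlations of the log2 fold change with mRNA GC and with mRNA length were taken over the 79 members. They were -0.41 and 0.32 for space with gravity against land and -0.44 and 0.30 for space without gravity against land. For nanoceria they were 0.35 and -0.03, and for gravity withdrawn 0.03 and -0.14. The deviation of the make-up correlated with GC at 0.12 to 0.58 in the 6 land libraries and at -0.33 to 0.52 in the 11 space libraries. These are descriptions over genes that share their libraries. With trends in GC and length taken out of the counts, 7 members were called in space with gravity against land. The share of all genes called in that fit is not given here. The median over all 79 was -0.42 against -0.14 over all genes. Of those described above, Rps15 then had -0.37 (adjusted p = 0.564, edgeR) and Rpl37 -1.12 (adjusted p = 0.0688).

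The medians of members with and without the word CTCTTT are given as a description. For space with gravity against land the median was -0.68 over 23 tested genes with it and -0.70 over 36 without. For gravity withdrawn the medians were 0.61 and 0.56, and for nanoceria -0.30 and -0.24. For space without gravity against land they were -0.08 and -0.20.

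The other genes of translation were tested in the same fit for space with gravity against land, where 24 of 185 were called, a share near the 14.0% of all tested genes. That count was 8 to 12 when space with gravity and nanoceria replicate 1, space with gravity replicates 1 or 2, or land replicates 1 or 2 were left out one at a time, and 0 with the percent of the dominant genes as a covariate. Of the 5 ribosomal genes outside the symbol rule none passed: Fau, whose product splits into a ubiquitin-like protein and a small-subunit protein, had -1.34 ± 0.45 (adjusted p = 0.0516), Rpsa -0.67 ± 0.48, Rpl36al -0.16 ± 0.42 and Rack1 0.54 ± 0.44. Among 16 elongation factors and other mRNAs known to begin with a pyrimidine tract, 1 was lower, Eif3f, a subunit of an initiation factor (-1.35 ± 0.40, adjusted p = 0.0333). Eef1a1, the factor that brings tRNA to the ribosome, had 0.59 ± 0.44 (adjusted p = 0.374) and Eef2, which moves it along, 0.88 ± 0.52 (adjusted p = 0.252), and Eef2 passed once trends in GC and length were taken out. With limma voom Eef2 and Rack1 turned to -0.05. Tpt1, a growth-related tract mRNA, had -0.46 ± 0.44. None of 29 initiation factors was called (edgeR, 0 of 29), and Eif3g had the smallest p among them.

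Of 29 ribosome assembly factors, 2 were higher in space with gravity and 0 lower: Sbds, which frees the large subunit for use (1.89 ± 0.39, adjusted p = 0.00903), and Wdr43, of the small-subunit processome (1.78 ± 0.50, adjusted p = 0.0270). Sbds was at 23.8 to 101 scaled CPM in space with gravity and 9.20 to 20.2 on land. Of 14 genes for RNA polymerase I and its factors, which make the ribosomal RNA, Polr1a (1.85 ± 0.50) and Polr1b (1.64 ± 0.44), the 2 catalytic subunits, were higher. Polr1d (-1.66 ± 0.38) and Cd3eap (-1.47 ± 0.43) were lower. Of 16 genes that control ribosome synthesis, Mtor (1.44 ± 0.38), the S6 kinase Rps6kb1 (1.96 ± 0.42) and the RNA-binding protein Larp4 (2.45 ± 0.57) were higher, and Max, the partner of Myc, was lower (-1.32 ± 0.35). Myc itself had -0.50 ± 0.42 (adjusted p = 0.424). Of 76 mitochondrial ribosomal proteins, which serve the separate ribosome of that organelle, 11 were lower and 2 higher, and Mrpl52 had the smallest p (-2.17 ± 0.42, adjusted p = 0.00701). Their median was -0.42. For nanoceria and for gravity withdrawn, none of these lists held a called gene. The member median of 0.60 for gravity withdrawn stood beside 0.69 over the 5 ribosomal genes outside the rule, 0.46 over the tract mRNAs, 0.14 over the initiation factors, -0.04 over the assembly factors and 0.12 over the mitochondrial ribosomal proteins.

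Gene length moved with these calls. The 9 other translation genes called higher had a median deposited length of 6578 bases and the 15 called lower 1466 bases, against 3098 for the 161 not called. The 8 called members had a median of 1156 bases, and over all genes the 834 called higher had 4827 (median) and the 779 called lower 2423. Over the 11558 tested genes the Spearman correlation of the log2 fold change with length was 0.21. With GC and length trends taken out, 18 of the 185 other translation genes were called.

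**Figure D5:**
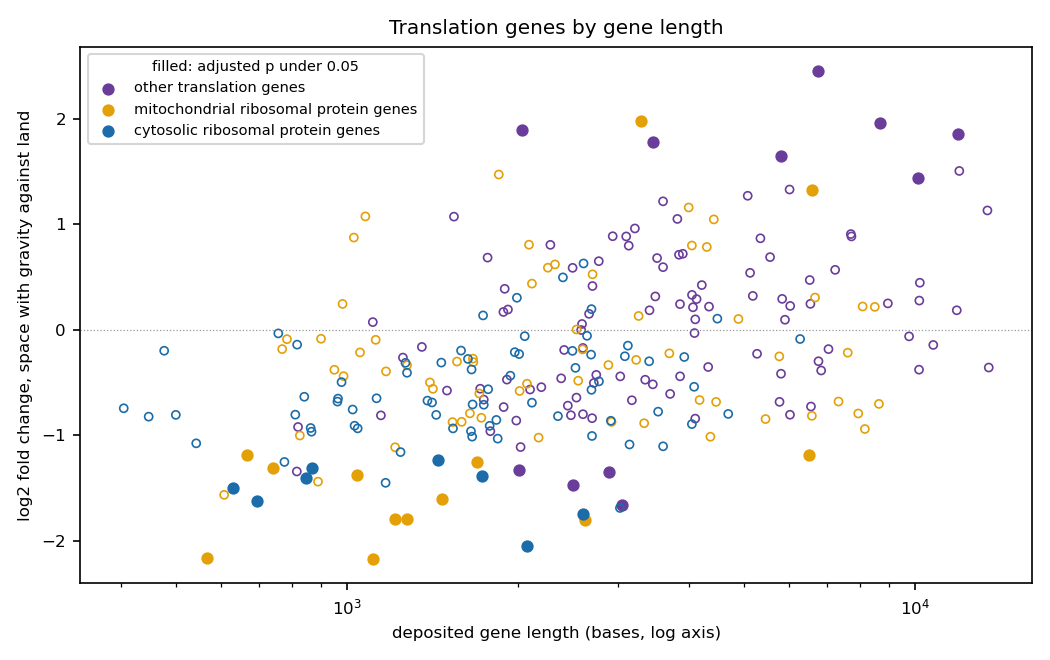
Log2 fold change of space with gravity against land (vertical axis) by deposited gene length in bases (horizontal log axis) for cytosolic ribosomal protein genes, mitochondrial ribosomal protein genes and other translation genes; filled points have an edgeR adjusted p under 0.05. The genes called higher have a median length of 6578 bases and those called lower outside the cytosolic members 1466.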

How the data were processed

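Polyadenylated RNA of 18 libraries was analysed; the 18 small RNA samples of the series were not analysed here. The authors deposited raw counts per gene with gene lengths in bases, 1 library per file, per the file headers. The submitters' processing notes list CASAVA, Trimmomatic 0.36.29, STAR, Subread, featureCounts and GRCm38.p6; the treatment of reads with several matches and the annotation release are not given in the sources used here. The library kit named in the labels does not mark strand, so reads of overlapping antisense genes cannot be told apart, and copies in pseudogenes could move single members.

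Counts were fitted with edgeR 4.0.16 (R 4.3.3): filterByExpr over the 6 groups left 11558 genes, with trimmed-mean scaling, a group-means model over 18 libraries, a robust quasi-likelihood F-test (2-sided, 12 residual degrees of freedom) and Benjamini-Hochberg adjustment over all genes at 0.05. Positive fold changes are higher in the first group named. The fit was tested on simulated counts.

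Groups come from the class letters of the labels; replicate numbers follow record order and pair nothing. P-values measure the spread between these libraries, and intervals and floors of 3 counts cover counting error only. Total counts are 23858 to 11378178 per library.

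mRNA length, GC and copies come from GENCODE M21 transcripts and the GRCm38.p6 genome (start and end agree for 68 of 82 members). Promoters are those of RefSeq.

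The members and gene lists were chosen with earlier results of these data known. Named are the 6 members highest per length, up to 3 members in each direction of each averaged comparison (by fold among called members, otherwise by p), 7 paralogue pairs, 10 members with a special role, Rpsa, Rack1, Fau, Eef1a1, Eef2, Tpt1, Myc, and the smallest p of each other list. Named outside that rule, after their values were seen, are the remaining called members and list genes, members whose ranges do not overlap, and Rpl30. Some genes that the rule names are not reported here, though all counts and medians include them.

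Alternatives were DESeq2 size factors in edgeR, DESeq2 1.42.0, limma 3.58.1 voom with quality weights, no filter, a mean of at least 50 counts, only the compared groups, each replicate and the smallest library left out, the 6 dominant genes removed before scaling, their share as a covariate, GC and length trends, mostly unique members, other denominators and another length.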

Additional observations from a re-analysis of the deposited data

How the results depend on the processing

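Called members for space with gravity against land (8) became 25 with DESeq2 size factors, 38 with the DESeq2 test, 27 with limma voom, 1 without a filter on low counts, 26 with a mean of at least 50 counts, 1 with only the compared groups, 0 with the dominant share as a covariate and 2 among mostly unique members, and 0 to 12 with 1 replicate left out; the cause was not tested. For space without gravity against land (0) they became 4 with the DESeq2 test, 2 with limma voom, 1 with a mean of at least 50 counts and 1 without GC and length trends. Over the 9 pairwise comparisons (0) they became 21, 22, 4 and, with only the compared groups, 1. Nanoceria, gravity withdrawn and the difference between regimes stayed at 0 under every alternative run. Of these alternatives, the share of all genes called is given above only for DESeq2 and limma voom. Of all counts, the log2 ratio of the summed share was -0.20 for space with gravity against land (-1.16 outside the dominant genes, -1.37 to -1.01 with 1 replicate left out) and 0.18 for space without gravity against land (-0.22; -0.64 to -0.03). With transcript length, 2 of the 6 highest members stayed. Called other translation genes (24) became 15 without a filter, 15 with only the compared groups and 0 with the covariate, and 8 to 25 with 1 replicate left out. The member median turned to 0.25 (space with gravity against land) and 0.29 (space without gravity against land) with the covariate; with 1 replicate left out the latter ran from -0.24 to 0.069, above 0 without land replicate 2 or land with nanoceria replicate 2. Single genes that changed sign were Eef2 (-0.048) and Rack1 (-0.052) with limma voom, Myc (0.11), Rpsa (0.41), and Tpt1 (0.51) with the covariate, and Rpl22l1 (-0.022) with DESeq2 size factors. For nanoceria with 1 replicate left out, Rpl18 ran from -0.19 to 0.28 and Rps16 from -0.17 to 0.45. In all, 28 of 360 single-gene values under other alternatives lost their call and 16 gained one. With 1 replicate left out, 53 of 456 lost it and 2 gained one. Only values called in the main fit could lose a call, so the losses are a larger share of those. No paired analysis was possible because replicate numbers follow record order only. Depth limits the smallest library, where 3 counts equal 165 CPM.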
